A study of Mus musculus with 9 samples.

Results

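The comparison described here sets cells transduced with an activated Her2 oncogene against control cells of the same mouse mammary epithelial line, Comma-1D, in 3 sorted populations. Comma-1D comes from normal mouse mammary tissue and is known to hold cells of basal and of luminal kind. The comparison uses 6 of the 9 RNA-seq libraries of the study, chosen by their labels: the Her2 library and the control library of each population. The other 3 libraries come from cells transduced with an activated MYC oncogene and serve as a second reference. Each arm holds 1 library of each population: B, sorted for much Sca-1 and little EpCAM, L, sorted for little Sca-1 and much EpCAM, and bi, sorted for much of both surface proteins, so that Her2, control and MYC have 3 libraries each. All cells were grown in medium with fetal calf serum, murine EGF and human insulin. The labels do not say from which species the Her2 sequence came, whether the controls carried an empty vector, whether sorting came before or after transduction, or whether the 3 libraries of an arm came from separate cultures. The p-values therefore measure the spread between these libraries around a common difference, and part of that spread may be technical. Values of the populations are given in the order B, L and bi throughout.

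HER2, encoded by Erbb2, is a receptor tyrosine kinase of the EGF receptor family that has no ligand of its own and signals in pairs with its relatives EGFR, ERBB3 and ERBB4. Its activation feeds the RAS-ERK and PI3K-AKT cascades, which drive transcription through ETS and AP-1 factors and restrain FOXO factors. In the mammary gland, ERBB signalling through ligands such as amphiregulin takes part in duct growth, and ERBB2 amplification marks a class of breast cancers.

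Depth ran between 46.9 M and 98.9 M assigned reads per library over all 9 libraries, and ribosomal RNA loci took between 9.71% and 16.1% of them. Among the 6 Her2 and control libraries that share was 9.71%, 13.6% and 16.1% in Her2 cells, against 12.9%, 12.5% and 13.1% in control cells. Of the genes in the files, 23834 had enough reads to be tested. The gene that encodes Sca-1, Ly6a, had 19.5, 2.37 and 15.9 CPM (read counts scaled to a common library size) in Her2 cells, against 57.8, 6.53 and 18.4 CPM in control cells. Epcam had 0.307, 610 and 288 CPM in Her2 cells and 0.764, 408 and 336 CPM in control cells. Both transcripts thus lay in the order of the gates in each arm, which is a check of the sort and not a result. Of markers of other cell types, those past the filter on low counts were summed. The 9 immune markers of 18 summed to 9.76, 10.3 and 7.34 CPM in Her2 cells, against 4.39, 6.14 and 4.61 CPM in control cells. Cd68 alone made up 8.07, 7.12 and 4.01 CPM of these sums in Her2 cells, and 1.70, 3.16 and 2.35 CPM in control cells. The 7 endothelial markers of 10 summed to between 7.15 and 8.65 CPM in Her2 libraries, against 5.45 to 7.20 CPM in controls. In B, L and bi the 5 adipocyte markers of 10 summed to 6.04, 25.9 and 14.7 CPM in Her2 cells, against 6.71, 37.7 and 22.8 CPM in control cells, mostly from Lpl. The 10 Schwann and neuronal markers of 12 summed to 8.53, 93.1 and 71.6 CPM in Her2 cells, against 6.98, 81.1 and 72.7 CPM in control cells, with Map2, Tubb3 and Ngfr among them.

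Erbb2 was higher in Her2 cells in every population. It had 189, 651 and 235 CPM in Her2 cells, against 53.3, 88.9 and 82.3 CPM in control cells and 56.7, 69.0 and 74.4 CPM in MYC cells. The lowest Her2 library lay above the highest library of either other arm. The log2 fold change of Her2 over control, fitted as 1 common difference over the 3 populations, was 2.12 (SE 0.31), with an adjusted p of 0.0573 by edgeR's quasi-likelihood test, just outside the threshold of 0.05 used here. Against MYC it was 2.24, with an adjusted p of 0.0069. Reads of the introduced Her2 and of the resident mouse Erbb2 cannot be told apart in these gene counts.

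**Figure D1:**
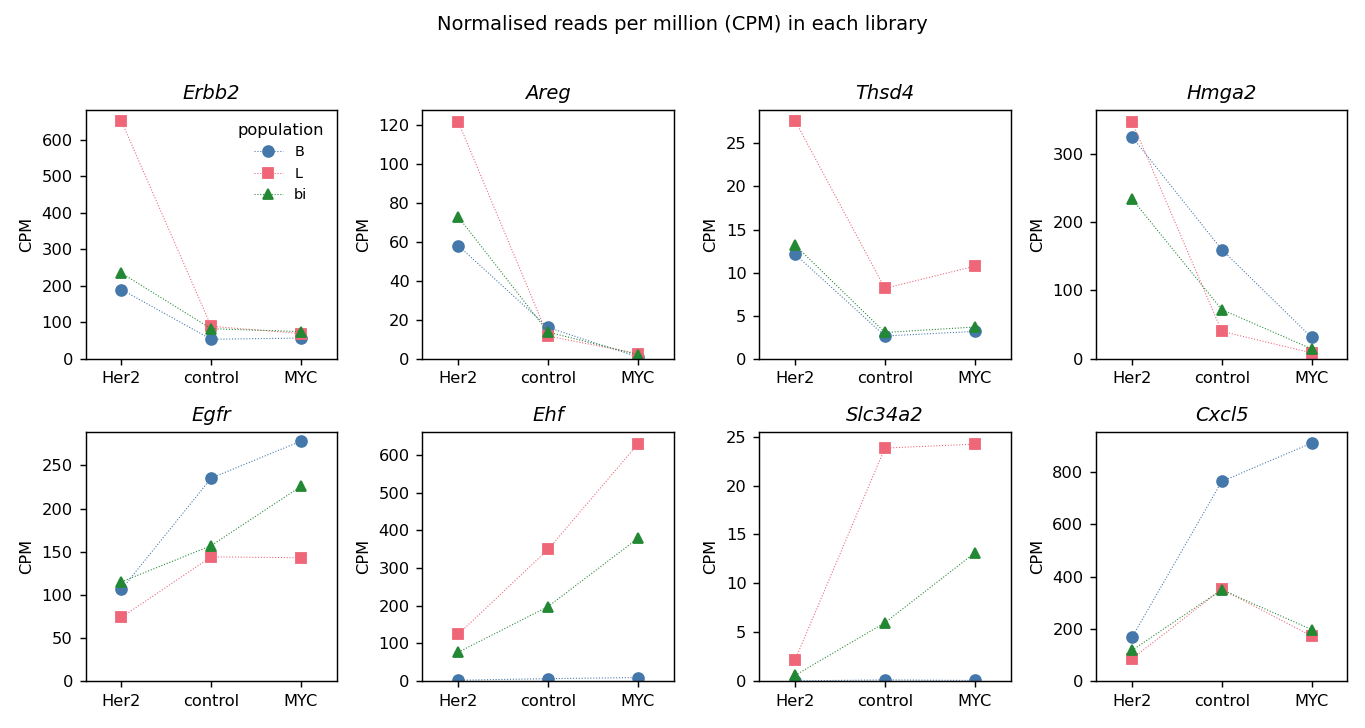
Level in CPM (linear axes that start at 0) of 8 genes in each library, with the Her2 arm at the left, the control arm in the middle and the MYC arm at the right. Circles are population B, squares L and triangles bi, and dotted lines join the libraries of a population. Erbb2, Areg, Thsd4 and Hmga2 lie higher, and Egfr, Ehf, Slc34a2 and Cxcl5 lower, in the Her2 library than in the control library of each population.

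Across the 3 populations, edgeR's quasi-likelihood test called 5 of 23834 genes between Her2 and control at an adjusted p under 0.05, which is 0.021% of those tested. Those that rose (0.0126%) were Thsd4, Lilr4b and Crisp1, and those that fell (0.00839%) were Ehf and Slc34a2. The test had 4 residual degrees of freedom, and all 5 genes have the same adjusted p of 0.0485. At an unadjusted p under 0.05 the test gave 2097 genes (8.8%), of which 965 were higher (4.05%) and 1132 lower (4.75%) in Her2 cells, and 109 genes (0.457%) had an adjusted p under 0.10. The number of calls depended on the processing: the same test on the Her2 and control libraries alone called 196 genes, limma-voom 54 and DESeq2 509, whereas a filter that kept genes of at least 1 CPM in 3 libraries left 0 at an adjusted p under 0.05.

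Thsd4, which encodes a secreted thrombospondin-domain protein of the extracellular matrix (chr9:59966931-60522046, minus strand, mm10), had 12.1, 27.6 and 13.2 CPM in Her2 cells, against 2.65, 8.18 and 3.05 CPM in control cells. The Her2 libraries lay above all controls, and L was the highest population in both arms. Its log2 fold change was 2.03 (SE 0.21), and its ratio in single populations was similar, at 2.18, 1.75 and 2.10 on the log2 scale. Ehf, which encodes an epithelial ETS factor found in luminal cells (chr2:103263433-103303278, minus strand), had 1.80, 124 and 76.3 CPM in Her2 cells, against 6.04, 349 and 197 CPM in control cells. The arms overlapped as groups, since B was low in both, but each Her2 library lay below the control of its own population. The log2 fold change of Ehf was -1.53 (SE 0.17). Against MYC, where Ehf stood at 8.89, 629 and 378 CPM, it fell by 2.32 (adjusted p 0.0004).

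Slc34a2, a sodium-phosphate cotransporter made by secretory epithelia (chr5:53038081-53071664, plus strand), had 0, 2.17 and 0.573 CPM in Her2 cells, against 0.107, 23.8 and 5.96 CPM in control cells. In B it rested on 0 reads in Her2 and 6 in control, so that the difference comes from L and bi. Its log2 fold change was -3.53 (SE 0.41). Lilr4b, an inhibitory leukocyte receptor gene with a close paralog that could share reads with it, had 14, 310 and 160 reads in Her2 cells, against 0, 4 and 10 reads in control cells. Of the 18 immune markers 9 passed the filter on low counts, and the leukocyte marker Ptprc had at most 0.951 CPM in Her2 cells and 0.835 CPM in control cells. The macrophage marker Cd68 was higher in all 3 populations without a call, with 8.07, 7.12 and 4.01 CPM in Her2 cells, against 1.70, 3.16 and 2.35 CPM in control cells (log2 fold change 1.43, adjusted p 0.211). Of the 9 immune markers tested, 2 (B), 5 (L) and 7 (bi) were higher in Her2 cells. In all 3 populations 2 of them were higher and 2 lower, where 9.89% and 14.9% of all genes were. The part of immune cells in the Lilr4b value was not tested. Crisp1, which encodes a secreted cysteine-rich protein known from the male reproductive tract, had 10, 100 and 128 reads in Her2 cells and 0 in each control. Over the arm, Crisp1 was at least 86.7-fold higher, with 3 reads over the control arm taken as the floor. Single libraries decided these calls. Thsd4 and Slc34a2 passed no longer without the B control, the L control or the L Her2 library, with adjusted p up to 0.138 and 0.199. Ehf and Lilr4b were also lost without the B Her2 library, with adjusted p up to 0.199 and 0.240. Crisp1 was lost in 6 of these fits, with adjusted p up to 0.223. The log2 fold changes in the same fits lay between 1.93 and 2.23 for Thsd4, between 4.36 and 6.56 for Lilr4b, between 8.69 and 10.45 for Crisp1, between -1.61 and -1.39 for Ehf and between -3.90 and -3.32 for Slc34a2.

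The number of genes past a 2-fold ratio differed between the populations. With the higher arm at 5 CPM or more, Her2 cells were 2-fold or more above control for 501 genes in B (4.66% of 10753), 642 in L (5.89% of 10896) and 145 in bi (1.35% of 10719). They were 2-fold or more below control for 529 genes in B (4.92%), 307 in L (2.82%) and 242 in bi (2.26%). L was thus the one population with more genes past 2-fold upwards than downwards, and bi had the smallest number both ways. Each population has 1 library per arm, so these ratios carry no test. Fewer cells of a type and less RNA per cell cannot be told apart in such bulk libraries.

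Of the 145 genes 2-fold higher in bi, 82 were also 2-fold higher in L, which is 56.6% of the bi genes and 12.8% of the L genes. B and bi shared 28 genes in that direction, 19.3% of the bi genes and 5.59% of the B genes. B and L shared 105, which is 21.0% of the B genes and 16.4% of the L genes. Among 2-fold lower genes, B and L shared 103 (19.5% of B, 33.6% of L). There L and bi shared 72 (23.5% of L, 29.8% of bi), and B and bi 51 (9.64% of B, 21.1% of bi). Log2 ratios were correlated across the 10882 genes with a mean of 5 CPM or more in the higher arm. Those of L and bi had a Pearson r of 0.57 (Spearman rho 0.48). For B and L it was 0.29 (rho 0.23), and for B and bi 0.12 (rho -0.02). These are correlations across genes of single library pairs, and genes are not independent replicates.

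**Figure D2:**
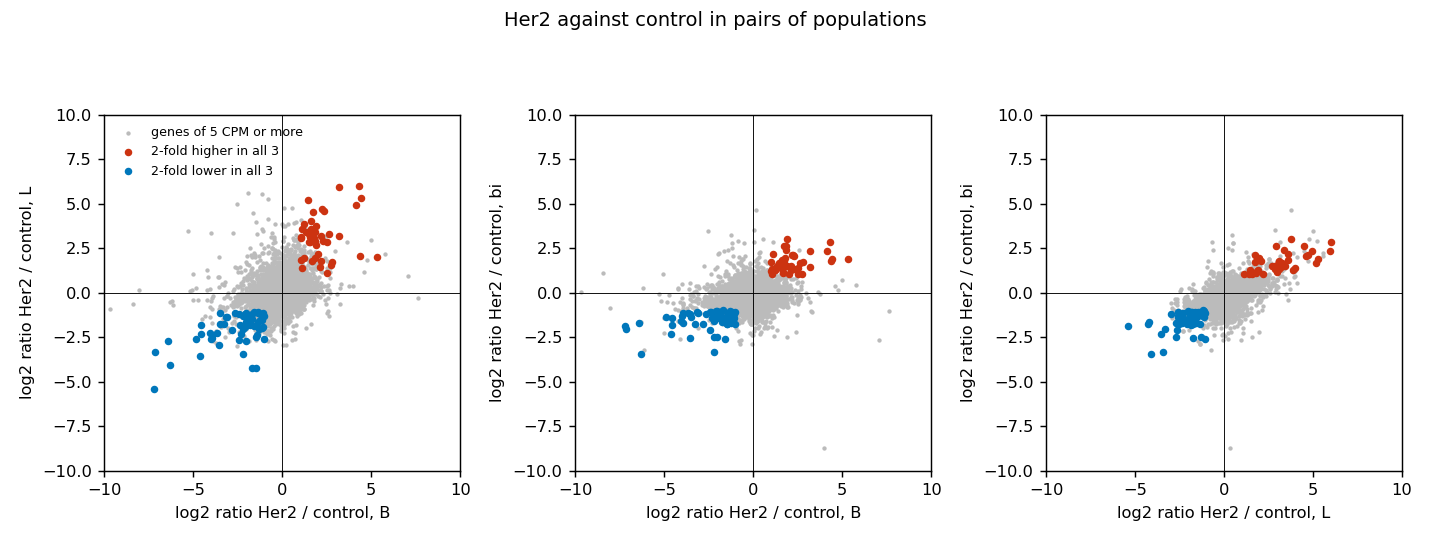
Log2 ratio of Her2 over control, plotted for B against L, B against bi and L against bi. The genes drawn had a mean of 5 CPM or more in the higher arm. Grey points are all such genes, red points the 44 genes 2-fold higher and blue points the 57 genes 2-fold lower in all 3 populations. The cloud is most stretched along the diagonal for L against bi, where r is 0.57.

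In all 3 populations together, 44 genes were 2-fold or more higher in Her2 cells (0.404% of 10882) and 57 were 2-fold or more lower (0.524%). Here the mean of the higher arm over the populations was 5 CPM or more, so a single population could rest on few reads. Wif1 had 1 read in Her2 and 6 in control of B, and Myl9 had 1 read in Her2 and 38 in control of L. This grouping was made after the values were seen and describes the libraries without a test. On the log2(TPM + 1) scale it held 33 genes, against 101. Of the 44 higher genes, 37 had their largest ratio in L, whereas 34 of the 57 lower genes had theirs in B. The higher genes include Erbb2, the ligand genes Areg and Hbegf, the cytokine genes Il1a, Il11 and Cxcl2, the cell cycle inhibitor Cdkn1a, the polyamine enzyme Odc1, the chromatin protein gene Hmga2, the ligand genes Wnt7a and Bmp2, the neurotrophin Bdnf and the receptor kinase Flt3. Among the lower genes are the contractile genes Acta2 and Myl9, the matrix genes Postn, Col5a2, Col6a1 and Col6a2, the chemokines Ccl2, Ccl7, Cxcl5 and Cxcl12, the acute-phase genes Hp and Lbp, and the Wnt antagonist Wif1.

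Promoter windows of 5 of these genes are printed to set the sequence beside the values: Thsd4 and Slc34a2 passed the test, and Areg, Il1a and Il11 were 2-fold higher in all 3 populations. Each holds the 250 bases before a transcription start in RefSeq (build GRCm38.p6), read 5′ to 3′ on the gene's strand, and capitals mark 2 motifs searched on both strands, the AP-1 site TGANTCA and the cAMP response element TGACGTCA, which do not match the same letters.
Thsd4 (chr9:60511036-60511285, minus strand): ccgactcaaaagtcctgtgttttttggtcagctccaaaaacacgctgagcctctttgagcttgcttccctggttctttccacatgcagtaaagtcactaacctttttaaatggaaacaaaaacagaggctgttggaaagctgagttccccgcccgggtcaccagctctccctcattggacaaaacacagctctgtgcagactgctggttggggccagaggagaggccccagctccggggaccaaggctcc
Slc34a2 (chr5:53049103-53049352, plus strand): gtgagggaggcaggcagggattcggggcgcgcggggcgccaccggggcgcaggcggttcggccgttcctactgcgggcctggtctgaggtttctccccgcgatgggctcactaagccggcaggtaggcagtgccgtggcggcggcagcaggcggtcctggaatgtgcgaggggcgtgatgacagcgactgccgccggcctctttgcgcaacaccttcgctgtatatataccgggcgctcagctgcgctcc
Areg (chr5:91139349-91139598, plus strand): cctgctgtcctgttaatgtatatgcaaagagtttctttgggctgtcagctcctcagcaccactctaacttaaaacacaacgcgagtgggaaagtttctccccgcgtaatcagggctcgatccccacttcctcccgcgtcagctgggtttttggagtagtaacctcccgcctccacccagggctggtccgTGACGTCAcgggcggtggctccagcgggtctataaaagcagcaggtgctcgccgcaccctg
Il1a (chr2:129309973-129310222, minus strand): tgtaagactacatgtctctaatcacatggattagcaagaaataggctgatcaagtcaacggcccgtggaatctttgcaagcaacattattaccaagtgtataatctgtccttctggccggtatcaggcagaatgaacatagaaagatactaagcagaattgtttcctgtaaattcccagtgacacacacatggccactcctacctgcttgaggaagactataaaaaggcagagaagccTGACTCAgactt
Il11 (chr7:4778142-4778391, minus strand): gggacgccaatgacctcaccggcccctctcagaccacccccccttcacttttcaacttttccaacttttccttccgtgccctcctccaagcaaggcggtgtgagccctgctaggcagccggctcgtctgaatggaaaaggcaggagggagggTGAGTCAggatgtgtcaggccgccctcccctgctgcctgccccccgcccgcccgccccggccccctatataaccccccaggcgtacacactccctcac
Areg holds 1 cAMP response element, which starts 61 bases before the transcription start. An AP-1 match starts 12 bases before the start in Il1a and 98 bases before it in Il11, while the Thsd4 and Slc34a2 windows hold neither motif in these letters. Il11 and Thsd4 have 2 windows each. A window with an AP-1 match was printed where a gene had one, as for Il11, and otherwise that of the outermost start. The Il11 match is thus a product of that choice. Among all 32851 windows of this length, 6.75% hold the AP-1 letters and 1.55% the cAMP response element. Of the 44 higher genes 32 had a window, and 6 of these (18.8%) had an AP-1 match in at least one, against 3 of the 36 lower genes with a window (8.33%) and 7.82% of all 27025 genes with one. The cAMP response element matched in 1 of the 32 (3.12%), in 0 of the 36 and in 1.77% of all genes. A match of letters is a description of the sequence and no evidence of binding.

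Among the EGF family ligands and the proteases that shed them, 6 of 14 genes tested were higher in Her2 cells in all 3 populations and 0 were lower in all 3, where 9.89% and 14.9% of all genes were. The list had 0 genes called against control by edgeR, and 4 at an unadjusted p under 0.05, all higher, where 4.05% of all genes were. Its median log2 fold change was 0.35, against -0.01 over all genes tested. Areg, which encodes the EGFR ligand amphiregulin, had 58.1, 122 and 72.8 CPM in Her2 cells, against 16.1, 11.6 and 13.7 CPM in control cells. The Her2 libraries lay above all controls, and the log2 fold change was 2.50 (SE 0.33, adjusted p 0.0549). Without the B control, B MYC, L MYC, bi MYC or bi Her2 library Areg passed the threshold, and with one library left out its adjusted p lay between 0.0244 and 0.199. Hbegf, the heparin-binding ligand of EGFR and ERBB4, had 96.3, 266 and 56.3 CPM in Her2 cells and 45.8, 31.3 and 22.5 CPM in control cells, all Her2 libraries again above the controls. Nrg1, the neuregulin that binds ERBB3 and ERBB4, had 113, 137 and 168 CPM in Her2 cells, against 65.4, 88.7 and 108 CPM in control cells. Ereg, the ligand epiregulin, differed between populations, with 113, 144 and 119 CPM in Her2 cells and 162, 46.5 and 60.8 CPM in control cells, so that B was lower and L and bi higher. Against MYC, a comparison that shares the Her2 libraries and in which 4.57% of all genes were called, Areg (log2 fold change 5.46, adjusted p 0.00029), Hbegf (3.06), Nrg1 (2.00), Ereg (3.21) and Epgn (2.11) all rose, which makes 5 of the 14. The sheddase gene Adam10 lay close to control, with 217, 188 and 214 CPM in Her2 cells and 227, 200 and 211 CPM in control cells.

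The other receptor genes differed in other ways. Egfr had 106, 73.7 and 115 CPM in Her2 cells, against 235, 144 and 157 CPM in control cells, lower in every population and without overlap between the arms. Its log2 fold change over control was -0.86 (SE 0.19, adjusted p 0.131), and against MYC Egfr fell by 1.10 (adjusted p 0.014). Erbb3, the kinase-impaired partner of HER2, had 9.51, 110 and 27.2 CPM in Her2 cells, against 2.65, 62.4 and 36.6 CPM in control cells, higher in B and L and lower in bi. Erbb4 had at most 0.117 CPM in Her2 cells and 0.221 CPM in control cells. Errfi1, an inhibitor of ERBB kinases that their own signalling induces, had 61.5, 259 and 55.8 CPM in Her2 cells, against 88.7, 46.5 and 41.8 CPM in control cells, a log2 ratio of 2.47 in L and -0.53 in B. The adaptor gene Gab1 had 25.0, 28.1 and 28.1 CPM in Her2 cells, against 28.5, 50.8 and 43.8 CPM in control cells, and fell against MYC by 1.37 (adjusted p 0.010).

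Of 31 genes that ERK signalling is known to induce, 15 (B), 29 (L) and 30 (bi) were higher in Her2 cells, and the list median was largest in L. The difference between populations was not tested. Against control 0 were called, and 14 were higher and 1 lower at an unadjusted p under 0.05, where 4.05% and 4.75% of all genes were. In all 3 populations 15 were higher, against 9.89% of all genes. In B the median log2 ratio of the list stood at -0.05, while L had 1.09 and bi 0.41, against -0.04, -0.02 and -0.08 over all genes tested. Hmga2 had 325, 347 and 234 CPM in Her2 cells, against 160, 40.1 and 72.0 CPM in control cells, with every Her2 library above every control (log2 fold change 2.01, SE 0.37, adjusted p 0.0913). Dusp5, a nuclear ERK phosphatase, had 57.7, 118 and 27.0 CPM in Her2 cells, against 34.4, 12.5 and 11.5 CPM in control cells; on the log2 scale the ratio came to 0.75 (B), 3.23 (L) and 1.23 (bi). The receptor gene of urokinase, Plaur, had 39.9, 108 and 35.5 CPM in Her2 cells and 25.5, 13.7 and 16.5 CPM in control cells. Spry4, a feedback inhibitor of RAS signalling, had 2.89, 7.75 and 1.64 CPM in Her2 cells, against 2.08, 1.07 and 0.587 CPM in control cells. In each of these the L library had the largest ratio. Dusp6, the cytoplasmic ERK phosphatase, had log2 ratios of -1.28 (B), 0.70 (L) and 0.39 (bi). Against MYC, 15 of the 31 rose and 0 fell, where 2.13% and 2.44% of all genes did.

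The AP-1 subunits had list medians of 0.47 (B), 1.18 (L) and 0.52 (bi) on the log2 ratio scale, with 8 (B), 12 (L) and 7 (bi) of the 12 genes tested higher in Her2 cells. Fosl1, the FOS-family gene that ERK activity sustains, had 71.4, 83.9 and 33.9 CPM in Her2 cells, against 50.5, 15.8 and 21.2 CPM in control cells, and Fosl1 rose against MYC by 2.45 (adjusted p 0.021). Fosb had 7.0, 41.4 and 8.92 CPM in Her2 cells, against 5.17, 11.7 and 3.22 CPM in control cells. Atf3, a stress-induced member, had 15.1, 78.2 and 13.7 CPM in Her2 cells and 4.30, 16.1 and 7.33 CPM in control cells. Jun was nearly level in B and bi, with 97.6, 264 and 131 CPM in Her2 cells against 104, 156 and 134 CPM in control cells. None of the 12 was called against control by edgeR, and 5 had an unadjusted p under 0.05, all higher, where 4.05% of all genes were.

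**Figure D3:**
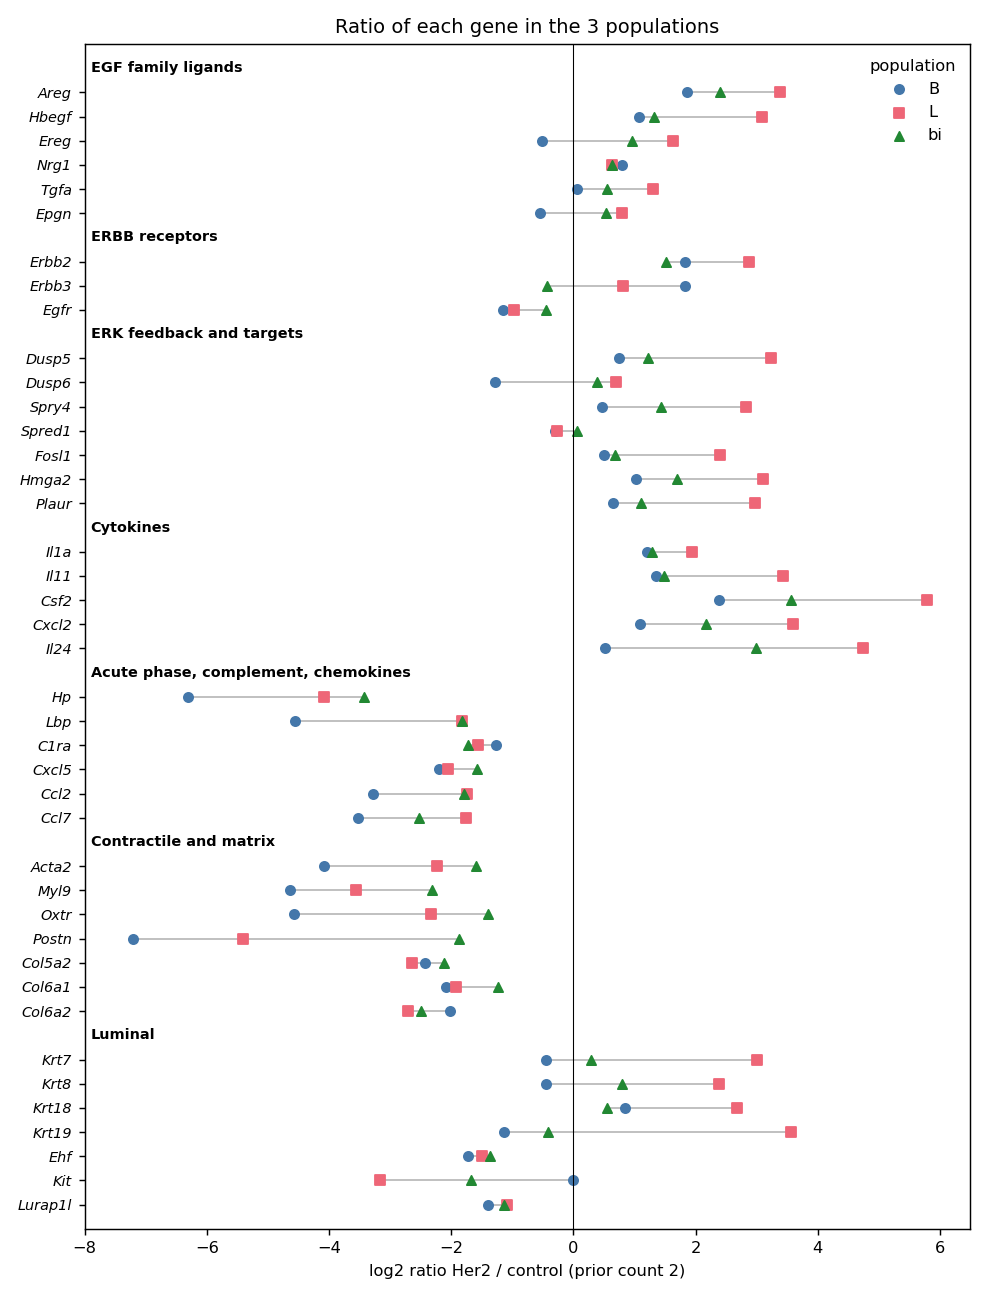
Log2 ratio of Her2 over control of single genes, grouped by role, in population B (circles), L (squares) and bi (triangles). Grey lines span the 3 populations. The ligand, ERK-target and cytokine genes drawn lie mostly at the right with L outermost, and the keratins Krt7, Krt8 and Krt19 lie far right in L alone. Genes at the right were also picked: Erbb2, Areg, Hbegf, Hmga2, Il1a, Il11 and Cxcl2 are among those 2-fold higher in all 3 populations. In B, 15 of all 31 ERK genes and 16 of all 33 cytokine and acute-phase genes tested were higher. The contractile, matrix, acute-phase, complement and chemokine genes drawn are among those 2-fold lower in all 3 populations, so they lie at the left by choice. Of all 44 collagen and matrix genes tested, 26 were higher in L.

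Genes of G2/M and mitosis lay mostly below control, and genes of G1/S and replication did so in L and bi but not in B. Of 54 genes of G2/M and mitosis, 37 were lower in Her2 cells in all 3 populations and 0 higher, where 14.9% of all genes were lower in all 3. Medians of the log2 ratio were -0.73 (B), -0.10 (L) and -0.41 (bi), and 0 were called by edgeR. At an unadjusted p under 0.05, 15 were lower, where 4.75% of all genes were. Ccna2, the cyclin of S phase and G2, had 35.8, 229 and 187 CPM in Her2 cells, against 93.8, 324 and 302 CPM in control cells. Kif11, a spindle motor, had 42.2, 109 and 108 CPM in Her2 cells and 75.2, 147 and 160 CPM in control cells. Both were lower in Her2 cells of every population, and B was the lowest population in each arm. Of 49 genes of G1/S and replication, 12 were lower and 2 higher in all 3 populations, where 14.9% and 9.89% of all genes were. Median ratios were 0.34 (B), -0.29 (L) and -0.44 (bi), and 37 (B), 5 (L) and 2 (bi) of the 49 were higher in Her2 cells. Against MYC, 32 of those 49 and 5 of the 54 rose, and 0 fell, where 2.13% of all genes rose and 2.44% fell.

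Cdkn1a, the CDK inhibitor p21, had 32.8, 173 and 68.6 CPM in Her2 cells, against 8.75, 27.3 and 24.1 CPM in control cells. All Her2 libraries lay above all controls (log2 fold change 2.12, SE 0.41, adjusted p 0.10). Cdkn1b, the inhibitor p27 and a FOXO target, had 57.3, 75.2 and 68.2 CPM in Her2 cells and 67.0, 148 and 116 CPM in control cells. Ccnd1, cyclin D1, had 626, 1660 and 802 CPM in Her2 cells, against 407, 782 and 777 CPM in control cells, with bi close to control. Odc1, the first enzyme of polyamine synthesis, had 589, 1191 and 765 CPM in Her2 cells, against 207, 164 and 266 CPM in control cells, without overlap between the arms (log2 fold change 2.02, SE 0.36, adjusted p 0.0852). Among FOXO targets and restraints on PI3K, 5 of 36 were higher and 6 lower at an unadjusted p under 0.05, where 4.05% and 4.75% of all genes were. Against MYC 9 fell and 1 rose, where 2.44% and 2.13% of all genes did. The list median log2 fold change over control was 0.21, with 11 genes higher and 10 lower in all 3 populations, where 9.89% and 14.9% of all genes were. Klf4, on the higher side, had 118, 161 and 93.7 CPM in Her2 cells, against 43.2, 82.1 and 78.7 CPM in control cells. Sesn1 had 9.60, 6.92 and 11.4 CPM in Her2 cells, against 19.1, 14.1 and 17.2 CPM in control cells, and Pik3r1 had 80.4, 75.0 and 79.6 CPM in Her2 cells, against 123, 104 and 107 CPM in control cells. Neither overlapped between the arms, and both fell against MYC, by 1.21 (adjusted p 0.010) and 1.07 (adjusted p 0.0084).

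Secreted immune mediators split into a higher and a lower set. Of 33 cytokine and acute-phase genes tested, 12 were higher and 6 lower at an unadjusted p under 0.05 against control, where 4.05% and 4.75% of all genes were. None of the 33 was called, and against MYC 12 rose and 10 fell, where 2.13% and 2.44% of all genes did. Il1a, interleukin-1 alpha, had 145, 1037 and 374 CPM in Her2 cells, against 63.1, 271 and 154 CPM in control cells. Each Her2 library was above the control of its own population, although B in Her2 cells lay below L and bi in control cells (log2 fold change 1.46, SE 0.21, adjusted p 0.0573). Csf2, the growth factor GM-CSF, had 21, 503 and 39 reads in Her2 cells and 3, 8 and 1 reads in control cells. Il24 had 0.345, 92.4 and 14.2 CPM in Her2 cells, against 0.231, 3.41 and 1.76 CPM in control cells, so that it differed in L and bi. Ptgs2, the inducible prostaglandin synthase, had 669, 806 and 465 CPM in Her2 cells, against 451, 95.6 and 181 CPM in control cells. The neutrophil chemokine Cxcl2 had 12.1, 66.8 and 14.3 CPM in Her2 cells and 5.66, 5.53 and 3.16 CPM in control cells, the Her2 libraries all higher. Il1a, Csf2, Il24, Ptgs2 and Cxcl2 each rose against MYC.

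Several acute-phase, complement and chemokine genes lay lower in Her2 cells. Hp, haptoglobin, had 0.0383, 0.777 and 0.206 CPM in Her2 cells, against 5.38, 13.6 and 2.52 CPM in control cells, every Her2 library below every control (log2 fold change -4.72, SE 0.64, adjusted p 0.0549). Lbp, which binds bacterial lipopolysaccharide, had 0.594, 7.33 and 1.36 CPM in Her2 cells and 14.6, 26.1 and 4.91 CPM in control cells. C1ra, a protease of the first complement component, had 33.5, 1.57 and 2.75 CPM in Her2 cells, against 80.9, 4.68 and 9.11 CPM in control cells, lower in each population by a like ratio. Of 14 complement genes 6 were lower in all 3 populations and 2 higher, where 14.9% and 9.89% of all genes were, and the median log2 fold change was -0.54. Cxcl5, a ligand of the neutrophil receptor CXCR2, had 167, 85.0 and 117 CPM in Her2 cells, against 764, 351 and 349 CPM in control cells, without overlap (log2 fold change -1.91, SE 0.31, adjusted p 0.0667). Ccl2, the main monocyte attractant, had 6.27, 0.278 and 2.86 CPM in Her2 cells and 60.8, 1.0 and 9.93 CPM in control cells. The chemokine list as a whole went both ways, with 6 of 26 higher and 5 lower in all 3 populations, where 9.89% and 14.9% of all genes were. Its median log2 fold change was 0.0003. Hp, C1ra and Cxcl5 fell against MYC, and 6 of the 14 complement genes did, with 1 that rose, where 2.44% of all genes fell and 2.13% rose. Interferon-response genes lay lower by smaller amounts: 17 of 39 were lower in all 3 populations and 1 higher, where 14.9% and 9.89% of all genes were. Against control 0 were called by edgeR and 5 were lower at an unadjusted p under 0.05, where 4.75% of all genes were. Against MYC 13 fell, where 2.44% of all genes did.

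Several contractile and matrix genes of basal cells were lower in Her2 cells in all 3 populations. Of 31 basal and myoepithelial genes tested, 12 were lower in all 3 populations, 4 of the 12 by 2-fold or more, and 3 were higher, where 14.9% and 9.89% of all genes were. None was called by edgeR, with 11 lower and 1 higher at an unadjusted p under 0.05, where 4.75% and 4.05% of all genes were. In Her2 cells 7 (B), 14 (L) and 13 (bi) of the 31 were higher than in control cells, and of 44 collagen and matrix genes 9 (B), 26 (L) and 17 (bi). List medians of the log2 ratio were -0.84 (B), -0.14 (L) and -0.28 (bi). Acta2, smooth-muscle actin, had 15.5, 1.33 and 34.8 CPM in Her2 cells, against 262, 6.41 and 105 CPM in control cells. Oxtr, the oxytocin receptor of myoepithelial cells, had 0.575, 0.396 and 1.36 CPM in Her2 cells, against 14.4, 2.12 and 3.66 CPM in control cells, all Her2 libraries below all controls (log2 fold change -2.86, SE 0.53, adjusted p 0.0924). The basal keratin Krt14 had 758, 603 and 1285 CPM in Her2 cells, against 1473, 1128 and 1544 CPM in control cells, and Trp63, the basal transcription factor p63, had 430, 121 and 299 CPM in Her2 cells, against 603, 357 and 355 CPM in control cells. The keratin and Trp63 were thus nearer to control than Acta2 was.

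Among 44 collagen and matrix genes, 14 were lower and 3 higher in all 3 populations, where 14.9% and 9.89% of all genes were. Their median log2 ratios were -1.01 (B), 0.25 (L) and -0.32 (bi). Postn, periostin, had 8.57, 0.528 and 13.8 CPM in Her2 cells, against 1277, 23.5 and 50.4 CPM in control cells, that is log2 ratios of -7.21 (B), -5.40 (L) and -1.87 (bi). Postn had an adjusted p of 0.293 against control, and it fell against MYC by 6.33 (adjusted p 0.041). Col5a2, a fibrillar collagen chain, had 61.0, 9.38 and 26.4 CPM in Her2 cells, against 328, 58.6 and 114 CPM in control cells, with similar ratios in each population (log2 fold change -2.35, SE 0.40, adjusted p 0.0799). Dcn, the small proteoglycan decorin, went the other way, with 25.5, 1.47 and 2.42 CPM in Her2 cells and 1.23, 0.325 and 0.672 CPM in control cells. A list of 13 fibroblast and pericyte markers shares matrix genes such as Col3a1 with this one. The 10 of them past the filter on low counts summed to 104, 35.5 and 30.8 CPM in Her2 cells, against 121, 30.8 and 35.5 CPM in control cells. Whether the cell makeup of the sorted fractions took part in these differences was not tested.

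Luminal genes went in both directions. Of 22 luminal keratins and shared luminal markers tested, 8 (B), 14 (L) and 7 (bi) were higher in Her2 cells. In all 3 populations 3 of them were higher and 6 lower, where 9.89% and 14.9% of all genes were. The keratin genes Krt18 and Krt7 differed most in L. Krt18 had 4.27, 850 and 68.3 CPM in Her2 cells, against 2.38, 133 and 46.5 CPM in control cells. Krt7 had 0.537, 680 and 14.2 CPM in Her2 cells, against 0.746, 84.3 and 11.6 CPM in control cells. Their log2 ratios were 2.68 and 3.01 in L, against 0.84 and -0.45 in B and 0.55 and 0.29 in bi. The tight-junction gene Cldn4 had a log2 ratio of 2.60 in L, -0.82 in B and 0.20 in bi. Genes of luminal progenitors and alveolar cells were lower for 8 and higher for 3 of 21 in all 3 populations, where 14.9% and 9.89% of all genes were. By 2-fold or more in all 3 populations, 2 of the 21 were lower and 1 higher. The higher one, the integrin gene Itga2, had 8.63, 21.7 and 44.0 CPM in Her2 cells, against 2.43, 5.63 and 11.5 CPM in control cells. Against MYC 8 fell and 1 rose, where 2.44% and 2.13% of all genes did. Lurap1l had 14.2, 22.4 and 25.3 CPM in Her2 cells, against 37.4, 47.4 and 55.7 CPM in control cells, without overlap (log2 fold change -1.21, SE 0.19, adjusted p 0.0629). Wfdc18, a secreted protein of the WAP family, had 0, 14.1 and 11.6 CPM in Her2 cells and 0.426, 72.4 and 37.3 CPM in control cells. Kit, the receptor that marks luminal progenitors, was near the detection limit, with 0, 5 and 2 reads in Her2 cells against 0, 69 and 13 reads in control cells. Elf5, the alveolar ETS factor, had 0.268, 1.17 and 0.412 CPM in Her2 cells, against 0.515, 3.73 and 1.0 CPM in control cells.

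Several developmental ligands stood out by single genes. Wnt7a had 18.0, 63.6 and 20.1 CPM in Her2 cells, against 0.817, 1.59 and 5.44 CPM in control cells, all Her2 libraries higher (log2 fold change 4.04, SE 0.61, adjusted p 0.0629). With one library left out, the log2 fold change of Wnt7a lay between 3.25 (without L Her2, adjusted p 0.236) and 4.89 (without bi Her2, adjusted p 0.0024), and Wnt7a also passed the threshold without the L MYC or bi control library. Wif1, a secreted Wnt antagonist, had 0.0192, 0.410 and 2.00 CPM in Her2 cells, against 0.107, 8.31 and 6.79 CPM in control cells. The Wnt list as a whole had a median log2 fold change of -0.03, with 5 of 35 higher and 12 lower in all 3 populations, where 9.89% and 14.9% of all genes were. Tgfb2 had 3.55, 13.7 and 15.8 CPM in Her2 cells, against 12.1, 36.3 and 23.7 CPM in control cells, while Bmp2 had 10.2, 10.3 and 14.6 CPM in Her2 cells, against 2.86, 1.33 and 2.35 CPM in control cells. Dll4, a Notch ligand, had 4, 346 and 74 reads in Her2 cells, against 2, 5 and 4 reads in control cells. The Notch target Hey1 had 0.192, 1.80 and 0.825 CPM in Her2 cells and 0.391, 6.89 and 3.48 CPM in control cells. Bmp2 was not called against MYC (log2 fold change 1.03, adjusted p 0.27), whereas Wnt7a and Dll4 rose and Wif1, Tgfb2 and Hey1 fell.

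**Figure D4:**
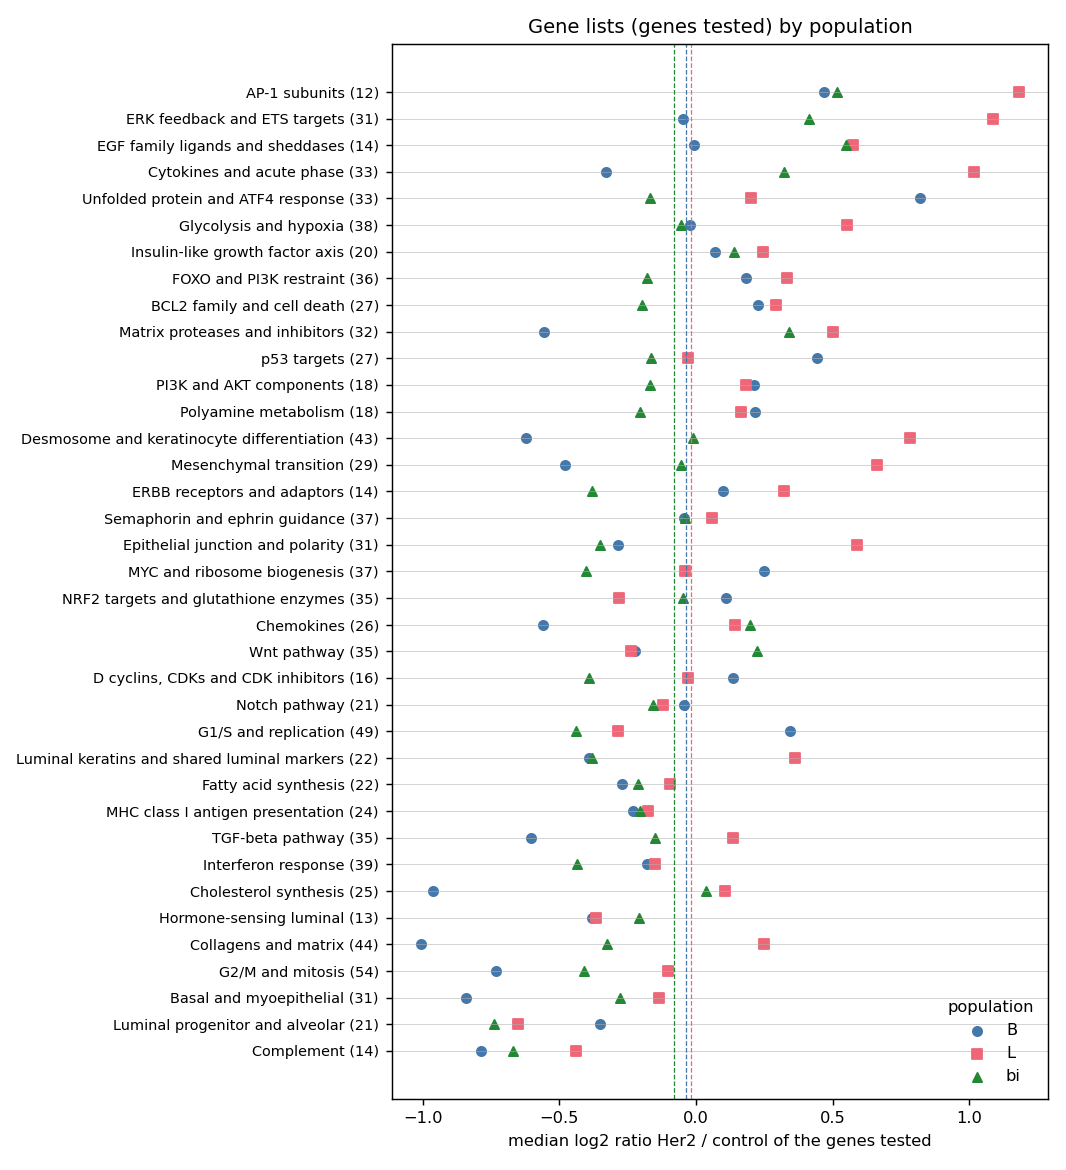
Median log2 ratio of Her2 over control of each gene list, with the number of genes tested in brackets, in population B (circles), L (squares) and bi (triangles). Dashed lines are the medians of all genes tested. The ERK and AP-1 lists lie at the right in L, at 1.09 and 1.18, and the collagen and cholesterol lists at the left in B, at -1.01 and -0.96.

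The ATF4 and cholesterol lists had their largest median ratios, in size, in B. Of 33 genes of the unfolded protein and ATF4 response, 4 were higher and 2 lower in all 3 populations, where 9.89% and 14.9% of all genes were, with median log2 ratios of 0.82 (B), 0.20 (L) and -0.17 (bi). Trib3, an ATF4 target that binds AKT, had 108, 71.7 and 15.5 CPM in Her2 cells, against 4.03, 20.0 and 13.8 CPM in control cells. Asns, asparagine synthetase, had 352, 183 and 104 CPM in Her2 cells, against 57.0, 163 and 136 CPM in control cells, higher in B, close to control in L and lower in bi. The cholesterol synthesis genes had median ratios of -0.96 (B), 0.11 (L) and 0.04 (bi) over 25 genes. Idi1, an isomerase of that route, had 24.9, 102 and 182 CPM in Her2 cells and 135, 137 and 175 CPM in control cells. None of these lists held a gene called by edgeR against control. At an unadjusted p under 0.05, 4 of 33 were higher and 4 of 25 lower, where 4.05% and 4.75% of all genes were.

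Within a single population, each with 1 library per arm, genes not named so far also had large ratios, of which examples follow. In B, the corneodesmosome gene Cdsn had 53.6 CPM in Her2 and 0.959 CPM in control, and the integrin gene Itgb7 had 105 CPM in Her2 and 2.57 CPM in control. Itgb7 was also 2-fold or more higher in L and bi, at log2 ratios of 1.99 and 1.92, and Cdsn in L, at 2.20. The chemokine Ccl11 had 0.288 CPM in Her2 and 83.6 CPM in control, and the macrophage elastase gene Mmp12 had 7.71 CPM in Her2 and 561 CPM in control. Outside B, the controls had at most 0.395 CPM of Ccl11 and 2.85 CPM of Mmp12. In L, the kallikrein gene Klk6 had 553 CPM in Her2 and 11.8 CPM in control, and the iron reductase gene Steap4 had 15.5 CPM in Her2 and 154 CPM in control. Steap4 was 2-fold or more lower in each population, at log2 ratios of -7.14 (B), -3.31 (L) and -2.06 (bi). Klk6 was also higher in bi, at a log2 ratio of 2.06. In bi, the glutamate receptor gene Grik3 had 63.8 CPM in Her2 and 2.51 CPM in control. Grik3 was also higher in L, with 4.53 CPM in Her2 and 0.312 CPM in control. Mir6236 had 409 CPM in Her2 and 43.6 CPM in control of bi, and AA474408 had 366 CPM in Her2 and 53.8 CPM in control. The bi Her2 library also had the largest share of ribosomal RNA loci among all 9, at 16.1%, and the part of that share in these 2 values was not tested. The prolactin receptor gene Prlr had 1.86 CPM in Her2 and 12.3 CPM in control of bi, and 18.5 CPM in Her2 and 51.8 CPM in control of L.

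Against MYC, the second reference, edgeR called 1089 genes (4.57%), of which 508 rose (2.13%) and 581 fell (2.44%) in Her2 cells. The difference between the number of calls in this comparison and in that with control was not tested, and both use the same Her2 libraries. Myc itself had 169, 96.6 and 68.2 CPM in Her2 cells, against 114, 83.3 and 92.6 CPM in control cells, with a log2 fold change over control of 0.12 (SE 0.20) and over MYC of -1.09 (adjusted p 0.021). Areg had 0.937, 2.66 and 2.11 CPM in MYC cells, so that its arms lay in the order Her2, control and MYC in each population. Hmga2 had the same order in each population, with 31.3, 8.60 and 14.5 CPM in MYC cells, and so did Odc1, with 105, 49.7 and 64.6 CPM in MYC cells. For Erbb2 and Thsd4 the MYC and control arms lay close together, Thsd4 having 3.18, 10.7 and 3.69 CPM in MYC cells. Hp lay in the opposite order, with 12.6, 240 and 16.0 CPM in MYC cells, above control in each population.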

How the data were processed

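RNA-seq libraries of sorted Comma-1D populations were made with a stranded kit after ribosomal RNA removal, per the labels' protocols, although the labels also name polyA RNA. The authors quantified transcripts with Salmon 0.9.1 on mm10, per the submitters' processing notes, and deposited estimated counts and TPM for each library. Genes were named from GENCODE vM21, which gave a symbol for 54107 of 54281 genes.

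Expected counts were rounded and tested with edgeR 4.0.16 (TMM scaling, filterByExpr by arm with a minimum count of 10 and total of 15, quasi-likelihood test, Benjamini-Hochberg adjustment over 23834 genes). The model held population and arm over all 9 libraries, so that Her2 and control were compared within populations. Genes were called at an adjusted p under 0.05. CPM are TMM-scaled, and ratios within a population are log2 of CPM with a prior count of 2, from 1 library per arm, and carry no test. Alternatives were DESeq2 1.42.0, limma 3.58.1 (voom, and log2(TPM + 1)), other scalings, filters and samples. The fit was tested on simulated data. Intervals and floors cover counting error only, since reads are not independent molecules.

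The libraries compared, the gene lists and the roles named were chosen with earlier results of these data known. The genes named by rule are Erbb2, Ly6a and Epcam, the called genes, the 10 smallest p in each direction, the list members of smallest p, the 6 largest ratios each way per population at 10 CPM or more, and the 8 genes with the widest opposite ratios. The group of genes 2-fold apart in all 3 populations, the adjusted p of 0.10, the motifs, and the other genes named from it and from the lists were chosen after their values were seen.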

Additional observations from a re-analysis of the deposited data

Results flagged for a closer look

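With 3 libraries in each arm, libraries far from the others were not looked for. Of the genes at 5 CPM or more in the higher library of each population, 38 were 2-fold lower in B and 2-fold higher in L in Her2 cells, and 4 the other way round. Among genes 2-fold higher in one population and 2-fold lower in another, with 10 CPM or more in some library, the 8 with the widest gap between populations are given. The difference between populations was not tested for any of them, because each population has 1 library per arm.

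Psg18 had a log2 ratio of Her2 over control of -8.41 in B, -0.63 in L and 1.11 in bi, with 1 read in Her2 and 934 reads in control of B, and at most 9 reads in any of the 4 libraries of L and bi. Sprr1a, a cornified envelope gene, had ratios of -5.31 in B, 3.47 in L and -0.10 in bi, with 16, 1417 and 401 reads in Her2 and 752, 142 and 462 reads in control. Car6, a secreted carbonic anhydrase, had ratios of 7.61 in B, -0.31 in L and -1.05 in bi, with 3910 reads in Her2 and 20 in control of B.

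Mmp10, the protease stromelysin-2, had ratios of -2.55 in B, 4.99 in L and 3.46 in bi, with 59, 1049 and 1917 reads in Her2 and 381, 35 and 184 reads in control. Sema7a, a membrane-anchored semaphorin, had ratios of -1.94 in B, 5.57 in L and 2.25 in bi, with 53, 1821 and 642 reads in Her2 and 224, 41 and 143 reads in control. Klk6 had ratios of -1.14 in B, 5.55 in L and 2.06 in bi, but B rested on 0 reads in Her2 and 2 in control. Avil, an actin-binding protein, had ratios of 5.14 in B, -0.16 in L and -1.12 in bi, with 741 reads in Her2 and 21 in control of B. Edn2, endothelin-2, had ratios of -1.66 in B, 4.50 in L and 2.33 in bi, with 1 read in Her2 and 7 in control of B.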

How the results depend on the processing

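The number of genes called between Her2 and control depended on the processing. Against 5 as reported, it was 32 with DESeq2 size factors, 509 with the DESeq2 test, 54 with limma-voom, 0 with limma-trend on log2(TPM + 1), 619 with no filter, 0 with at least 1 CPM in 3 libraries, 0 without the population term, 196 with the 2 arms alone, 1 without population L and 125 without population bi. Leaving out one library gave between 0 (without L Her2) and 89 (without bi Her2) genes. Her2 against MYC, with 1089 genes, gave 1874 with DESeq2, 500 with limma-trend, 2089 with no filter, 6 without the population term, 2070 without B, 256 without L and 432 without bi, and between 217 (without bi MYC) and 1499 (without B control) with one library left out. The cause of these differences was not tested.

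On log2(TPM + 1), 226 genes were past 2-fold in bi, against 387, and 33 in all 3 populations, against 101. Among 1106 recomputed log2 fold changes of named genes, 43 were no longer past the threshold and 228 newly past it, and on log2(TPM + 1) the value was 0.77 for Crisp1, against 9.28, and 0.56 for Dll4. Of the 1106, 5 turned in sign, all for Epcam, whose value of -0.15 became 0.069 with limma-voom, 0.27 without the population term and 0.24 without population B, and lay between -0.55 and 0.24 with one library left out, above 0 without the B control or the B Her2 library. Precision is limited by 1 library per population and arm, and by few reads for genes such as Crisp1, Lilr4b, Csf2 and Kit.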

Other observations

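Both keratinocyte and insulin-like growth factor lists held genes not described above. Klk10, a kallikrein protease, had 0.613, 478 and 76.0 CPM in Her2 cells, against 0.852, 54.9 and 18.2 CPM in control cells, and rose against MYC by 3.58 on the log2 scale (adjusted p 0.012). Serpinb2, a plasminogen activator inhibitor, had 11.9, 44.4 and 16.6 CPM in Her2 cells, against 6.91, 2.77 and 8.64 CPM in control cells. Igfbp3 had 142, 75.3 and 250 CPM in Her2 cells, against 582, 176 and 393 CPM in control cells, lower in each population, while Igfbp4 had 3266, 134 and 882 CPM in Her2 cells, against 1992, 92.8 and 529 CPM in control cells, higher in each. Upp1, uridine phosphorylase, had 47.3, 38.4 and 18.3 CPM in Her2 cells and 8.35, 5.21 and 6.93 CPM in control cells, without overlap. Of these 5 genes none was called between Her2 and control by edgeR.

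Notch1 had 65.6, 107 and 74.4 CPM in Her2 cells, against 199, 212 and 120 CPM in control cells, without overlap between the arms, and fell against MYC by 1.61 (adjusted p 0.013). Among 22 fatty acid synthesis genes, 11 were lower and 1 higher in all 3 populations, where 14.9% and 9.89% of all genes were. Of 27 genes of the BCL2 family and cell death, 6 were higher and 2 lower at an unadjusted p under 0.05, where 4.05% and 4.75% of all genes were. Bcl2l1, which encodes BCL-XL, had 73.6, 187 and 71.0 CPM in Her2 cells, against 30.6, 73.4 and 73.3 CPM in control cells, higher in B and L and close to control in bi.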
